A study of Mus musculus with 2 samples.

Results

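The subunits of the mitochondrial respiratory chain and of ATP synthase were followed in intestinal stem cells of fasted and fed mice. Members were the protein-coding genes whose symbols begin with Nduf (without the assembly factors named Ndufaf), Uqcr, Atp5 or Cox4 to Cox8, with Sdha, Sdhb, Sdhc, Sdhd, Cyc1 and Cycs, and the mitochondrial genes named mt-Nd, mt-Co, mt-Cytb and mt-Atp. This rule, which uses names and no measured value, took 100 of the 45706 gene IDs in the files, 87 of them nuclear and 13 mitochondrially encoded. Both libraries came from mice of the strain Lgr5-EGFP-IRES-creERT2 at 4 months of age, in which the Lgr5 locus drives a green fluorescent protein and a tamoxifen-inducible Cre recombinase, and the cells were sorted for high GFP. The library from fasted mice was compared with that from mice given free access to standard chow, and the labels name no other treatment. There was 1 library per condition, and the labels do not say how long the mice were fasted or how many mice a library holds. The comparison asks what fasting does to gene expression in these cells.

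The respiratory chain passes electrons from NADH (through complex I) and from succinate (through complex II) to coenzyme Q, then through complex III, cytochrome c and complex IV to oxygen. Complexes I, III and IV pump protons across the inner mitochondrial membrane, and ATP synthase (complex V) uses their return to make ATP. Most subunits are encoded in the nucleus and imported, while a small set of hydrophobic core subunits is encoded by mitochondrial DNA, so that all complexes except complex II are built from the products of both genomes. Intestinal stem cells at the crypt base are known for active mitochondria and for the use of fatty acids, whose oxidation feeds electrons into this chain.

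The fasted library held 5020056 counts and the fed library 6985316, so that 1 count was worth 0.199 counts per 1000000 counts of the library (CPM) in the fasted and 0.143 CPM in the fed library. All ratios are fasted over fed after scaling, on the log2 scale, with an exact 95% Clopper-Pearson interval that covers counting error only. With a single library per condition there is no replicate check, no test and no p-value, and each difference describes these libraries. Genes with a summed count of 20 or more and a mean of 1 CPM or more, 12026 in all, were called measured. The words higher and lower denote, of a single gene, that its ratio passed a stated threshold (2-fold, or a scaled level at least 25% above that of the other library) and its interval excluded a ratio of 1. Stem cell markers were present in both libraries, with summed levels of 14821 CPM in the fasted and 22478 CPM in the fed library over 12 genes (median log2 ratio -0.31, 1 of 12 positive). Absorptive enterocyte markers summed to 3882 CPM in the fasted and 2035 CPM in the fed library (median log2 ratio 1.17, 13 of 14 positive). Of these, 10 of 14 were higher past 2-fold. Over all measured genes 2.51% were higher and 1.91% lower past 2-fold. Goblet cell markers summed to 1235 CPM in the fasted and 629 CPM in the fed library (median 0.56, 6 of 7 positive), and 3 of 7 were higher past 2-fold. Paneth cell markers summed to 963 CPM in the fasted and 1104 CPM in the fed library, with a median of -0.33. Only 1 of the 7 Paneth markers was positive, Mmp7 at 2.07, which was also the 1 higher past 2-fold. Enteroendocrine markers summed to 126 counts in the fasted and 189 in the fed library (4 of 6 measured, median log2 ratio -0.06), and tuft cell markers to 47 in the fasted and 86 in the fed library (3 of 5 measured, median -0.62), with none past 2-fold in either list. Immune cell markers summed to 34 counts in the fasted and 92 in the fed library, with 2 of 6 measured (median -1.16), of which Cd68 was lower past 2-fold. Muscle, stroma and red blood cell markers were near 0 in both libraries, with none of 13 measured. In such bulk samples fewer cells of a type and less RNA per cell cannot be told apart, and the part of the marker differences in the subunit ratios was not tested.

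Of the 100 subunit genes 88 were measured, 81 of them nuclear and 7 mitochondrially encoded. The nuclear subunits lay slightly above the fed level as a group, with a median log2 ratio of 0.20 (1.15-fold) and an interquartile range of 0.11 to 0.32, and the median was 0.09 once exon length was allowed for. The 7 mitochondrially encoded subunits had a median of 0.04, or -0.14 with exon length allowed for. A single subunit, the complex IV isoform Cox6b2, was higher past 2-fold, and 0 were lower. Over all measured genes 2.51% were higher and 1.91% were lower by that rule. At 1.5-fold, which 5.11% of all measured genes passed as higher and 5.05% as lower, the counts of subunits were again 1 and 0. At the threshold of 25%, 18 subunits were higher, all nuclear, and 0 were lower. That is 20.5% of the measured subunits as higher, beside 10.5% of all measured genes as higher and 11.7% as lower. With exon length allowed for, 5 of the 88 subunits were higher and 1 lower past 25%, beside 9.93% of all genes as higher and 10.2% as lower.

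The direction was shared by most nuclear subunits. Of the 81 measured, 71 (87.7%) had a positive log2 ratio, whereas 47.9% of all measured genes did, and the median of all measured genes was -0.02. Intervals of 53 nuclear subunits excluded a ratio of 1, all of them above it, whereas 16.7% of all measured genes had an interval above and 19.2% an interval below a ratio of 1. These shares are not like for like, because intervals narrow with counts. Nuclear subunits had a median level of 165 CPM in the fasted and 139 CPM in the fed library. All measured genes had 38.6 CPM in the fasted and 39.7 CPM in the fed library. The intervals were also taken before any allowance for exon length. The ratios were also close to each other: among genes of at least 50 CPM, the 67 nuclear subunits had an SD of 0.14 around their mean, and the 5124 genes in all had an SD of 0.35. That cut leaves out low-count subunits with extreme ratios, such as Cox6b2 and Cycs. From 20 CPM the SD was 0.18 for 75 nuclear subunits and 0.36 for all genes. From 1 CPM it was 0.24 for all 81 nuclear subunits and 0.53 for all genes. The interquartile ranges, which extreme genes move less, differed less. From 50 CPM they were 0.20 wide for nuclear subunits and 0.31 for all genes, and from 1 CPM 0.21 and 0.43. Summed over all 87 nuclear genes, subunits took 2.05% of the counts in the fasted library (102894 counts) and 1.81% in the fed library (126524 counts), a log2 ratio of 0.20 (0.19 to 0.21). The 13 mitochondrially encoded genes took 5.43% of the counts in the fasted library and 5.25% in the fed library, a log2 ratio of 0.07 (0.06 to 0.08).

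**Figure D1:**
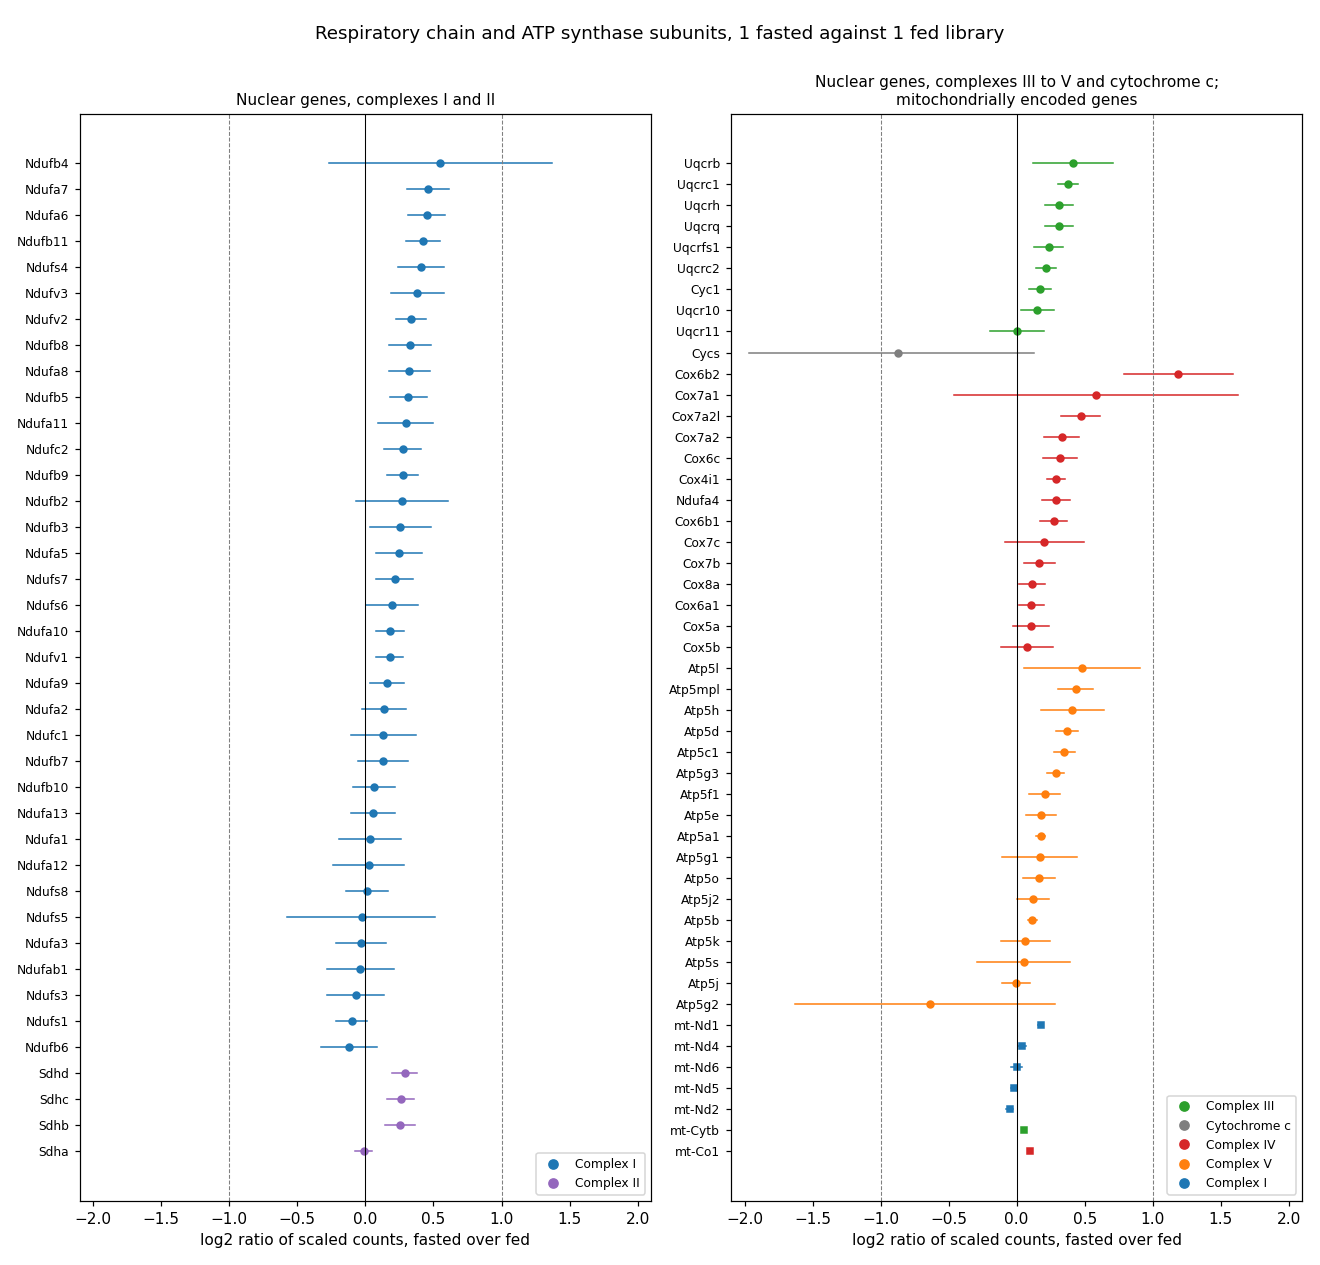
Log2 ratio of scaled counts, fasted over fed, of measured subunits, ordered within complexes, with exact 95% counting intervals as bars. Circles are nuclear and squares mitochondrially encoded genes, colours mark the complex, and dashed lines mark 2-fold. Most nuclear subunits lie between 0 and 0.5, Cox6b2 lies at 1.18, and the mitochondrially encoded genes lie between -0.05 and 0.18.

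The plot of ratios by complex shows this narrow band, with wide bars for the few subunits of low count and bars hardly wider than the symbol for the mitochondrially encoded genes. The subunit genes are short, and in these libraries the ratio moved with exon length. Across 11992 measured genes, which are no replicates of each other, the log2 ratio and the summed exon length had a Spearman correlation of -0.25. The median exon length was 1718 bases for the nuclear subunits and 4372 bases for all measured genes. In the shortest of 10 equal bins of genes (57 to 1669 bases, 1201 genes) the median log2 ratio of all genes was 0.15, and that of the 39 nuclear subunits among them was 0.23. Among genes of 1670 to 2402 bases these medians were 0.11 for all genes and 0.21 for 19 nuclear subunits, and among genes of 3037 to 3683 bases they were 0.02 and 0.18, with 9 nuclear subunits. After the running median of genes of like length was subtracted, the median of the nuclear subunits was 0.09, and 56 of 81 (69.1%) were above 0, beside 49.7% of all genes. The medians of the nuclear subunits were then 0.05 for complex I, 0.14 for complex II, 0.11 for complex III, 0.07 for complex IV and 0.18 for complex V, and that of the mitochondrially encoded subunits was -0.14. Past 25%, 5 of the 88 subunits were then higher, a smaller share than the 9.93% of all genes. These were Cox6b2 (0.99), Atp5l (0.52), Uqcrc1 (0.41), Ndufv3 (0.36) and Ndufb5 (0.34). The 1 lower subunit was Ndufb6 (-0.35), beside 10.2% of all genes. Past 2-fold, 0 subunits were then higher, beside 2.24% of all genes, and 0 lower, beside 2.01%, since Cox6b2 no longer reached 2-fold. What sets the relation with length was not tested.

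**Figure D2:**
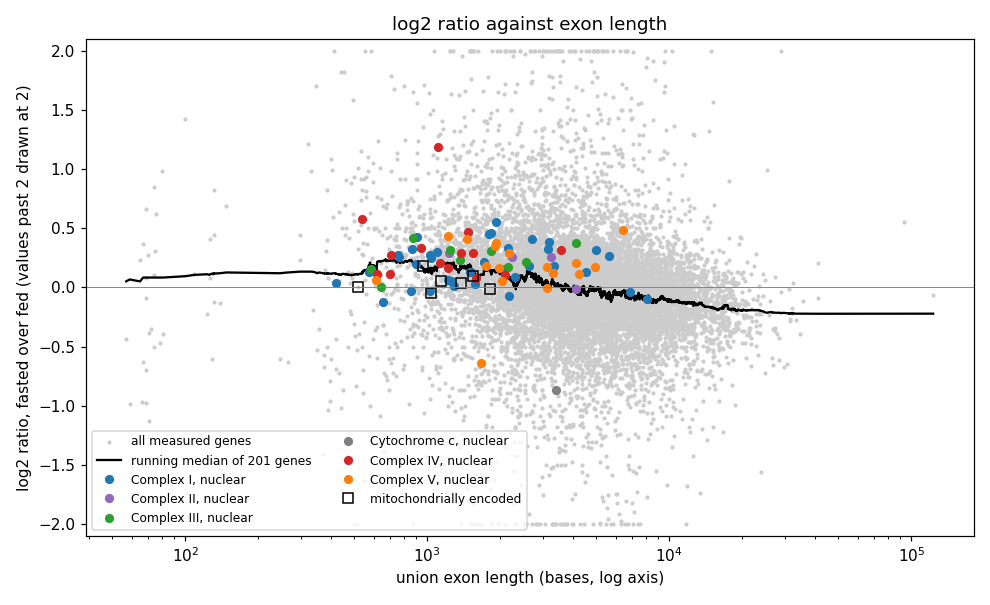
Log2 ratio, fasted over fed, against summed exon length in bases (log axis) for all measured genes (grey), with the running median of genes of like length (black line). Nuclear subunits are coloured circles and mitochondrially encoded subunits open squares, and values past 2 in either direction are drawn at 2 or -2. The running median lies above 0 for short genes and below 0 for long ones, and 56 of the 81 nuclear subunits lie above it.

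In the plot of ratio against length, the coloured points sit mostly left of the centre of the grey cloud, where the running median is above 0, and most stand somewhat above that line. Of the mitochondrially encoded genes 1 of 7 stands above it, mt-Nd1.

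Complex I takes electrons from NADH. All of its 36 nuclear subunits were measured, with a median log2 ratio of 0.19, and 30 of 36 were positive, 8 higher past 25% and 0 lower. The 7 conserved core subunits, which hold the flavin and the iron-sulphur clusters or line the quinone site, had a median of 0.09, and 1 of them was higher. That was the iron-sulphur subunit Ndufv2, with 244 CPM in the fasted and 197 CPM in the fed library, a log2 ratio of 0.34 (0.22 to 0.45). Ndufv1, which binds NADH and the flavin, had 286 CPM in the fasted and 257 CPM in the fed library, a log2 ratio of 0.18 (0.08 to 0.28). The largest iron-sulphur subunit, Ndufs1, had 202 CPM in the fasted and 220.0 CPM in the fed library, and its log2 ratio of -0.10 (-0.22 to 0.01) was among the lowest of the complex. Among core subunits nearer the quinone site, Ndufs7 had a log2 ratio of 0.21, Ndufs8 of 0.01 and Ndufs3 of -0.07. The core subunits therefore spread on both sides of 0, and none of those below 0 had an interval that excluded a ratio of 1.

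The 29 accessory subunits of complex I, which surround the core and are needed for its assembly and stability, had a median of 0.25, and 7 were higher past 25%. Ndufa7 had 136 CPM in the fasted and 101 CPM in the fed library, a log2 ratio of 0.46 (0.30 to 0.61). Ndufa6, an accessory subunit of the LYR protein family, had 175 CPM in the fasted and 130.4 CPM in the fed library, a log2 ratio of 0.45 (0.31 to 0.58). The others past 25% were Ndufb11 (0.42), Ndufs4 (0.41), Ndufv3 (0.38), Ndufb8 (0.33) and Ndufa8 (0.32), and loss of Ndufs4 is a known mouse model of complex I deficiency. After the length adjustment only Ndufv3 of these 7 stayed past 25%, at 0.36, and the rest lay between 0.09 (Ndufa8) and 0.31 (Ndufa7). Ndufv2 was then at 0.25, under 25%, while Ndufb5, at 0.31 before, passed it at 0.34. The highest ratio of the complex belonged to Ndufb4, with 28 counts in the fasted and 27 in the fed library, a log2 ratio of 0.55 whose interval (-0.27 to 1.37) included no change. Ndufb6 had the lowest, -0.12 (-0.33 to 0.08), with 64.1 CPM in the fasted and 70.9 CPM in the fed library. The difference between the medians of core and accessory subunits was not tested, and after the length adjustment the medians were 0.04 for core and 0.08 for accessory subunits.

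Complex II is succinate dehydrogenase, which is shared with the tricarboxylic acid cycle and has no mitochondrially encoded subunit. Its 4 genes had a median log2 ratio of 0.26, and 0 passed 25%. The flavoprotein Sdha, where succinate is oxidised, had 783 CPM in the fasted and 803 CPM in the fed library, a log2 ratio of -0.01 (-0.07 to 0.04). The iron-sulphur subunit Sdhb had 257 CPM in the fasted and 218 CPM in the fed library, a log2 ratio of 0.25 (0.15 to 0.36). The membrane anchors Sdhc and Sdhd had log2 ratios of 0.26 (0.16 to 0.36) and 0.29 (0.20 to 0.38). Thus, before the length adjustment, 3 of the 4 genes lay at nearly the same ratio, with intervals above 0 that the interval of Sdha did not overlap. After the length adjustment the log2 ratios were 0.01 for Sdha, 0.20 for Sdhb, 0.23 for Sdhc and 0.09 for Sdhd. By these values Sdhd lay between Sdha and Sdhb.

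Complex III passes electrons from coenzyme Q to cytochrome c. All 9 nuclear subunits were positive, with a median log2 ratio of 0.23, and 2 were higher past 25%. After the length adjustment 7 of the 9 were above 0, and of the 2 past 25%, Uqcrc1 stayed (0.41) and Uqcrb did not (0.21). Uqcrc1, a large matrix-facing core subunit, had 574 CPM in the fasted and 448 CPM in the fed library, a log2 ratio of 0.38 (0.30 to 0.45). Its partner Uqcrc2 had 551 CPM in the fasted and 482 CPM in the fed library, a log2 ratio of 0.22 (0.14 to 0.29), so that the intervals of the pair did not overlap. Uqcrb, a small subunit near the quinone site, had 37.8 CPM in the fasted and 28.8 CPM in the fed library, a log2 ratio of 0.42 (0.12 to 0.71). The redox centres outside cytochrome b were closer to the median of the complex, with 0.23 (0.13 to 0.34) for the Rieske iron-sulphur protein gene Uqcrfs1 and 0.17 (0.09 to 0.25) for the cytochrome c1 gene Cyc1. Uqcrh, which helps dock cytochrome c, had 0.31, while Uqcr10 had 0.15 and Uqcr11 had 0.01 (-0.19 to 0.20), the lowest of the complex.

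Complex IV reduces oxygen. Of its 20 nuclear genes 14 were measured, all 14 with a positive ratio and a median of 0.28, and 3 were higher past 25%, Cox6b2, Cox7a2l and Cox7a2. After the length adjustment 9 of the 14 were above 0, and Cox7a2l (0.29) and Cox7a2 (0.16) were under 25%. Ndufa4, named for complex I but now known as a complex IV subunit and counted here, had a log2 ratio of 0.29 (0.18 to 0.39). The ubiquitous isoform Cox4i1, a subunit through which ATP inhibits the enzyme, had 651 CPM in the fasted and 541 CPM in the fed library, a log2 ratio of 0.29 (0.22 to 0.36). Cox7a2l, known to help join complexes III and IV, had 157 CPM in the fasted and 115 CPM in the fed library, a log2 ratio of 0.47 (0.33 to 0.61). Cox7a2 had 189 CPM in the fasted and 153 CPM in the fed library, a log2 ratio of 0.33 (0.20 to 0.46). The lowest ratios were those of Cox5b (0.08, interval -0.11 to 0.27), Cox5a (0.11, interval -0.02 to 0.24) and Cox6a1 (0.11, interval 0.02 to 0.20).

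Cox6b2 is known as the testis isoform of subunit VIb, which sits on the outer face of complex IV where cytochrome c binds. It had 140 counts in the fasted and 87 in the fed library, or 27.9 CPM in the fasted and 12.5 CPM in the fed library, a log2 ratio of 1.18 (0.79 to 1.59). The ubiquitous isoform Cox6b1 had 1503 counts in the fasted and 1759 in the fed library, a log2 ratio of 0.27 (0.17 to 0.37). The share of Cox6b2 in the counts of both isoforms was 8.52% (exact 95% interval 7.22% to 9.98%) in the fasted and 4.71% (3.79% to 5.78%) in the fed library. After the length adjustment its log2 ratio was 0.99, just under 2-fold. In its coding transcript of 391 bases, none of the 50-base windows was found in a transcript of another gene, at another or an overlapping place. The gene lies on chromosome 7 (4751792 to 4753094, GRCm38). Its summed exon length is 1108 bases, and exon sequence outside that transcript was not searched.

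The other tissue isoforms of complex IV were at or near 0. Cox4i2, the lung isoform of subunit IV, and Cox7b2, Cox8b, Cox8c and Ndufa4l2 had 0 counts in both libraries, and Cox6a2, the heart and skeletal muscle isoform of subunit VIa, had 0 counts in the fasted and 1 in the fed library. A count of 0 allows a level of up to 0.598 CPM in the fasted and 0.429 CPM in the fed library, by a floor of 3 counts that covers counting error only. The muscle isoform Cox7a1 was measured at a low level, with 18 counts in the fasted and 17 in the fed library, which is 1.02% of the counts of the Cox7a family in the fasted and 0.900% in the fed library. These families were thus counted almost entirely in their ubiquitous forms, with Cox4i1, Cox8a, Cox7b and Ndufa4 at 100% of their family's counts in both libraries and Cox6a1 at 100% in the fasted and 99.96% in the fed library.

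ATP synthase consists of the F1 head, which makes ATP, the membrane ring of c subunits, a peripheral stalk and small membrane subunits. Its 17 nuclear genes had a median log2 ratio of 0.18, with 15 positive, 5 higher past 25% and 0 lower. Of all nuclear subunits, the alpha and beta genes of the F1 head had the highest levels per length. On the scale of counts per kilobase of exon per 1000000 counts, the alpha subunit gene Atp5a1 had 720.4 in the fasted and 647 in the fed library, and the beta subunit gene Atp5b had 626 in the fasted and 586 in the fed library. Their log2 ratios were 0.18 (0.14 to 0.21) for Atp5a1 and 0.12 (0.08 to 0.15) for Atp5b. The genes of the rotating central shaft, gamma (Atp5c1) and delta (Atp5d), were both higher past 25%. Atp5c1 had 543 CPM in the fasted and 432 CPM in the fed library, a log2 ratio of 0.35 (0.28 to 0.43), and Atp5d had 483 CPM in the fasted and 379 CPM in the fed library, a log2 ratio of 0.37 (0.29 to 0.45). Before the length adjustment, their intervals lay above those of Atp5a1 and Atp5b. The epsilon gene of the same shaft, Atp5e, had 0.18 (0.07 to 0.29). After the length adjustment the log2 ratios were 0.21 for Atp5c1 and 0.24 for Atp5d, both under 25%. They were then 0.14 for Atp5a1, 0.18 for Atp5b and 0.03 for Atp5e, and the differences among these genes were not tested. In the small membrane and stalk subunits the ratios spread from 0.48 (0.06 to 0.91) for the subunit g gene Atp5l and 0.43 (0.30 to 0.56) for Atp5mpl to -0.01 (-0.11 to 0.10) for the coupling factor 6 gene Atp5j. The stalk subunit d gene Atp5h had 60.6 CPM in the fasted and 46.2 CPM in the fed library, a log2 ratio of 0.41 (0.18 to 0.64). Atp5s, named for a coupling factor, had 0.05 (-0.30 to 0.39).

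The c ring is encoded by a family of 3 nuclear genes whose mature products are the same protein behind different import sequences. The coding sequences of the last 75 codons (RNA sense strand, GENCODE M21 on GRCm38) are shown because the isoforms differ in DNA where the protein is the same. Capitals mark bases that differ from Atp5g3.
Atp5g3: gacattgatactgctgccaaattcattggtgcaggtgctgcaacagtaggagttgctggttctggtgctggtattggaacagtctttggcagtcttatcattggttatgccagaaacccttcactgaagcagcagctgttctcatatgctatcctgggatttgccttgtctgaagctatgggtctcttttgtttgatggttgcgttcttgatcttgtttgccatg
Atp5g1: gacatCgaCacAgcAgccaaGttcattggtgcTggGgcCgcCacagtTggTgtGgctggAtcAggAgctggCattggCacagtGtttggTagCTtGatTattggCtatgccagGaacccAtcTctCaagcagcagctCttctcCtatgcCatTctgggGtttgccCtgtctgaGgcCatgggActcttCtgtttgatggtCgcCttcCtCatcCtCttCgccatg
Atp5g2: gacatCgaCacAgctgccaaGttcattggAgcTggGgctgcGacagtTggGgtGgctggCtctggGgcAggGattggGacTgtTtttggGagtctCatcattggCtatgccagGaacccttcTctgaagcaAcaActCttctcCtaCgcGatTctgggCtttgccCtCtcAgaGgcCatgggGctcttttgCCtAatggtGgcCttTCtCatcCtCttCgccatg
Of these 225 bases, 45 differ from Atp5g3 in Atp5g1 and 48 in Atp5g2, and 0 codons differ in the amino acid they encode. Atp5g3 held 95.1% of the counts of the family in the fasted library (4101 counts) and 94.4% in the fed library (4746 counts), with a log2 ratio of 0.29 (0.23 to 0.35). Atp5g1 held 4.55% in the fasted and 4.90% in the fed library, with a log2 ratio of 0.17 (-0.11 to 0.45), and its annotated copy Gm10039 took 23 counts in the fasted and 8 in the fed library. Atp5g2 had 15 counts in the fasted and 33 in the fed library, which is 0.348% of the family in the fasted and 0.657% in the fed library, and its log2 ratio of -0.64 had an interval of -1.63 to 0.28 that included no change. These shares are uncertain, because the genes differ in how far their reads could be placed: 0% of the coding 50-base windows of Atp5g3 occur in a transcript of another gene, against 99.7% for Atp5g1 and 100% for Atp5g2.

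Such copies were looked for in all subunits, by the share of the coding 50-base windows that occur without mismatch in an annotated transcript of another gene. Leaving out the tissue isoforms Cox6b2 and Cox7a1, the 59 measured nuclear subunits with under 20% of windows in copies had a median level of 115 counts per kilobase per 1000000 in the fasted and 108 in the fed library. The 13 subunits with 20% to 90% had a median level of 52.6 in the fasted and 47.6 in the fed library. The 7 subunits with at least 90% had a median level of 2.91 in the fasted and 2.82 in the fed library. These 7 were Ndufb4, Ndufab1, Cycs, Cox7c, Atp5l, Atp5g1 and Atp5g2. Their log2 ratios ranged from -0.87 for Cycs to 0.55 for Ndufb4, both on few counts. Counts of the 7 reached 234 in the fasted and 339 in the fed library for Ndufab1. Over the whole transcript, untranslated parts included, the share of windows in copies was lower, from 11.6% for Atp5g1 and 12.3% for Ndufab1 through 28.5% for Cycs and 37.0% for Ndufb4 to 68.5% for Atp5l and 87.4% for Atp5g2. Most of the transcript of these first 4 is therefore unique at this window length, while the levels per kilobase were taken over the whole exon length. No source used here says how the counting treated reads that match several places, so the levels of these genes are uncertain and a low count does not show a low level.

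Cycs, the gene of somatic cytochrome c, the electron carrier between complexes III and IV, which is also known for its role in cell death, had 12 counts in the fasted and 31 in the fed library. Per length this was 0.702 in the fasted and 1.30 in the fed library, the lowest level of all measured subunits. Its log2 ratio was -0.87, the lowest of all measured subunits, with an interval of -1.97 to 0.13 that included no change. Its coding sequence of 315 bases is 100% identical to the annotated gene Gm10053, which itself had 1 count in the fasted and 4 in the fed library. The testis form Cyct had 0 counts in both.

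**Figure D3:**
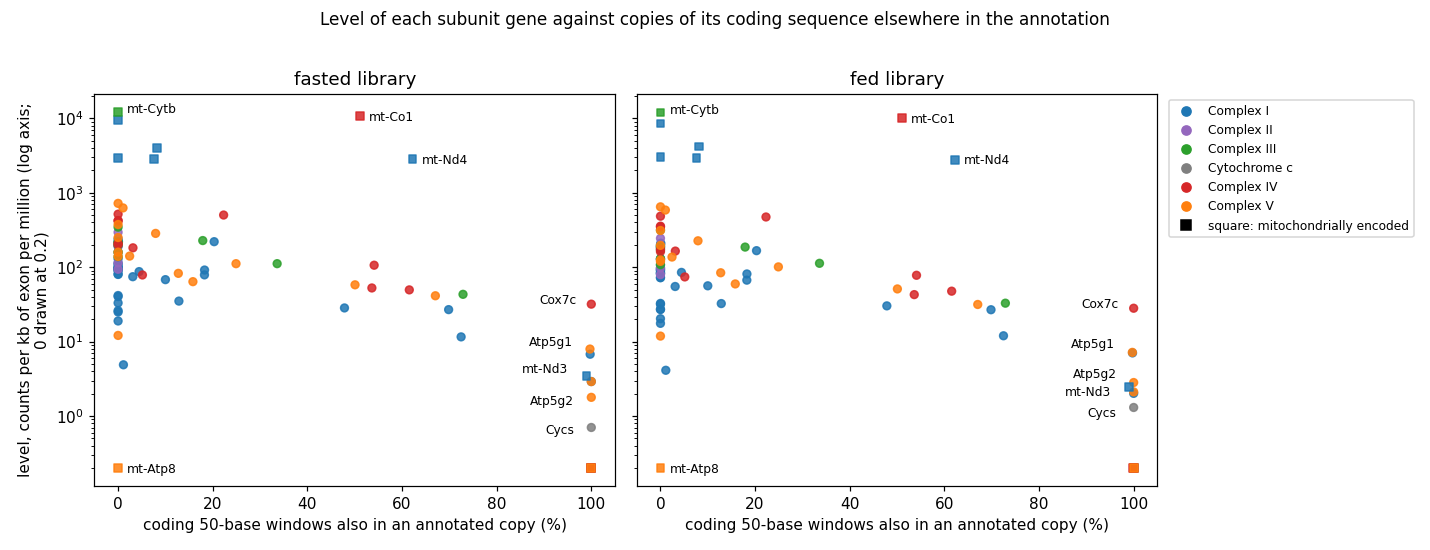
Level of each subunit gene (counts per kilobase of exon per 1000000 counts, log axis, 0 drawn at 0.2) against the share of its coding 50-base windows found in an annotated transcript of another gene (%), in the fasted (left) and the fed library (right). Tissue isoforms are left out, circles are nuclear and squares mitochondrially encoded genes. Genes at or near 100% lie low in both panels, at or under the level of Cox7c, while mt-Atp8 lies at 0 counts without a copy.

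The plot of level against copies shows the same arrangement in both libraries, with the high levels at the left and a group of low or uncounted genes at the right edge. Mitochondrially encoded subunits at or near 100% were likewise low or at 0 counts, while mt-Nd4 and mt-Co1, with copies of part of their sequence, were abundant. These genes are made from a compact circular genome as long joint transcripts that are cut into single messages. The measured genes were abundant: mt-Cytb, the cytochrome b of complex III, had 12288 counts per kilobase per 1000000 in the fasted and 11995 in the fed library, and the lowest, mt-Nd4, had 2819 in the fasted and 2784 in the fed library. In contrast, mt-Co2, mt-Co3, mt-Atp6, mt-Atp8 and mt-Nd4l had 0 counts in both libraries, and mt-Nd3 had 6 counts in each.

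The annotation holds copies of 7 different mitochondrial genes, some of them partial, next to each other on nuclear chromosome 1. They lie on the same strand and in the order of the mitochondrial genome (24611535 to 24616197, GRCm38, a span of 4663 bases). The copy of mt-Co2 matches it at 681 of 681 aligned bases, that of mt-Co3 at 783 of 783, that of mt-Atp6 at 678 of 678 and that of mt-Nd4l at 294 of 294. The copy of mt-Nd3 matches at 344 of 345 bases. Of genes that were counted, mt-Nd4 has an identical copy over 63.6% of its length. The copy of mt-Co1 on chromosome 1 has 486 matching bases of 492 over 31.8% of its length. Over all its copies, in 3 genes, 51.1% of the 50-base windows of mt-Co1 were found. The copies of mt-Nd2 on chromosome 2 and of mt-Nd5 on chromosome 13 match at 96.7% and 90.4% of aligned bases, and no window of 50 bases of mt-Nd1, mt-Cytb, mt-Nd6 and mt-Atp8 was found in a copy. With windows of 36 bases, copies held 3.07% of the windows of mt-Cytb, 2.69% of those of mt-Nd6, 4.73% of those of mt-Atp8 and none of mt-Nd1. A stretch of 60 bases of a gene without counts and of a counted gene is shown beside its nuclear copy (sense strand of the gene, GENCODE M21), with differing bases in capitals.
mt-Co3: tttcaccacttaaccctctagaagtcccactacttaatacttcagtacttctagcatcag
Gm28437: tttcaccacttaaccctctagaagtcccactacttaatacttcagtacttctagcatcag
mt-Nd2: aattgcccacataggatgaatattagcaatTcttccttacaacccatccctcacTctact
Gm13339: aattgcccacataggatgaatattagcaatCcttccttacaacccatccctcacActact
The pair of mt-Co3 has 0 differences in this stretch and the pair of mt-Nd2 has 2. The copies took almost no counts themselves, with 1 count in the fasted and 2 in the fed library for Gm28437, and 3 counts in the fasted and 2 in the fed library for Gm13339. The exception is mt-Atp8, which had 0 counts in both libraries and no annotated copy. It lies between mt-Co2 and mt-Atp6 in the mitochondrial genome and has 204 bases. The copies of those neighbours on chromosome 1 stand 233 bases apart, and the stretch between them was not read. The part of the copies in the missing counts was not tested.

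Among the 7 measured mitochondrially encoded genes the ratios were near 0 with narrow intervals, since each had at least 7699 counts in both libraries. The complex I gene mt-Nd1 had 45532 counts in the fasted and 56885 in the fed library, the highest log2 ratio of the 7 at 0.18 (0.16 to 0.19). The catalytic complex IV gene mt-Co1, with 82401 counts in the fasted and 108727 in the fed library, had 0.10 (0.08 to 0.11). The complex III gene mt-Cytb, with 70568 counts in the fasted and 95855 in the fed library, had 0.06 (0.04 to 0.07). The remaining 4 were complex I genes, with 0.04 (0.01 to 0.07) for mt-Nd4, -0.02 (-0.04 to 0.01) for mt-Nd5, -0.0003 (-0.04 to 0.04) for mt-Nd6 and -0.05 (-0.08 to -0.03) for mt-Nd2. None passed 25% in either direction. The ribosomal RNAs of the same genome, which are not members, had log2 ratios of 0.06 for mt-Rnr1 and 0.10 for mt-Rnr2. Of this set mt-Nd6 is the gene encoded on the opposite strand, so that its counts cannot be told apart from antisense RNA without a stated strand setting.

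The promoters of the nuclear subunits were searched for motifs, on both strands, in windows from 250 bases before to 50 bases after the gene start (RefSeq, GRCm38.p6), which were given for 66 of the 81 measured nuclear subunits and for 9005 of 11217 measured protein-coding genes. The NRF1 motif, named for a factor known for its role in the transcription of respiratory genes, was in 16 subunit promoters (24.2%) and in 11.2% of all. The core motif CCGGAAG of the ETS family, which includes the respiratory gene activator GABP, was in 15 (22.7%) and in 19.8% of all. The box TATAAA was in 5 (7.58%) and in 6.86% of all. In no subunit promoter did the NRF1 and ETS motifs overlap. Subunits with an NRF1 or ETS motif (27) had a median log2 ratio of 0.20 and those with neither (39) had 0.20. The promoter of Sdhd, which holds both motifs (in capitals), is shown with that of Cox6b2, the subunit past 2-fold, which holds none of the 3.
Sdhd: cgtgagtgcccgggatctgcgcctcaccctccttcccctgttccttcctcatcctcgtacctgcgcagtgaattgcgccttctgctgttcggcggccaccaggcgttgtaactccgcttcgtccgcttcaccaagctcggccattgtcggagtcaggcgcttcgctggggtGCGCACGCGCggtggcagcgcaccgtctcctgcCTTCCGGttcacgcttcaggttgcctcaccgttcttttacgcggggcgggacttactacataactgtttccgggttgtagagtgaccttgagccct
Cox6b2: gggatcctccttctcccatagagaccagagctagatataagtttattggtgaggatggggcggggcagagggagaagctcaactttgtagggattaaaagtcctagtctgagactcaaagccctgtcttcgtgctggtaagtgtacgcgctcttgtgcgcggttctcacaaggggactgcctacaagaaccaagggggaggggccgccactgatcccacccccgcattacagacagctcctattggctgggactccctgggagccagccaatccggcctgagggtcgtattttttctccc
The windows are chr9:50603800-50604099 for Sdhd and chr7:4753045-4753344 for Cox6b2, both on the minus strand. A match of letters is not a site, and a missing match says nothing of the factor.

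Genes around the chain were described by lists, none of them tested. Electrons of fatty acid oxidation enter coenzyme Q through the electron transfer flavoprotein and its dehydrogenase. The flavoprotein subunit gene Etfb had 1196 counts in the fasted and 669 in the fed library, a log2 ratio of 1.34 (1.20 to 1.47), and the dehydrogenase gene Etfdh had 1665 counts in the fasted and 1016 in the fed library, a log2 ratio of 1.21 (1.10 to 1.32). Both were higher past 2-fold, while the other flavoprotein subunit, Etfa, had 0.69 (0.57 to 0.81). The list of 9 measured genes around electron entry had a median of 0.20, and its lowest values were those of Gpd2 of the glycerol phosphate shuttle at -0.17, Sqor of sulphide oxidation at -0.04 and the transhydrogenase gene Nnt at 0.02. The 16 fatty acid oxidation enzymes upstream had a median of 1.46, and 10 were higher past 2-fold, led by Acadl at 2.53, the acylcarnitine carrier gene Slc25a20 at 2.29 and Eci2 at 2.22. The others past 2-fold were Hadhb, Acaa2, Hadha, Acadvl, Cpt1a, Cpt2 and Decr1, between 1.15 and 2.02. The lowest of the list were Hadh at 0.44, Acsl1 at 0.37 and Echs1 at 0.19.

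The uncoupling protein gene Ucp2, whose product is a carrier of the inner membrane, was higher past 2-fold, with 7388 counts in the fasted and 3876 in the fed library, a log2 ratio of 1.43 (1.37 to 1.48). Of the other carriers and pores in its list of 10 measured genes (median 0.21), the adenine nucleotide carriers Slc25a4 and Slc25a5, which exchange ADP for the ATP made by complex V, had 0.73 (0.50 to 0.96) and 0.38 (0.29 to 0.48). The lowest of that list were Slc25a27 at -0.40 (-0.92 to 0.11), Slc25a14 at -0.40 (-1.23 to 0.41) and the pore gene Vdac3 at -0.04, all with intervals that included a ratio of 1. In coenzyme Q synthesis (13 genes, median 0.14) the methyltransferase gene Coq3 was higher past 2-fold, with 175 counts in the fasted and 114 in the fed library, a log2 ratio of 1.12 (0.77 to 1.47). Next to it stood Coq4 at 0.61 and Coq8a at 0.41, while the lowest were Coq10b at -0.22, Coq8b at -0.05 and Coq5 at -0.004, with intervals that included a ratio of 1.

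Assembly factors of the complexes had a median of 0.07 (-0.01 after the length adjustment) over 46 genes. Past 25%, 7 (15.2%) were higher and 1 was lower, beside 10.5% of all measured genes as higher and 11.7% as lower. The lower gene was Lyrm7, a chaperone of the Rieske protein, with 17 counts in the fasted and 47 in the fed library, a log2 ratio of -0.97 (-1.86 to -0.14). The complex IV factor Surf1 had 0.48 (0.26 to 0.71), the complex I factor Tmem126b had 0.49 (0.14 to 0.83), and Sdhaf1 of complex II had 0.55 with an interval from -0.01 to 1.11. Next lowest after Lyrm7 were the complex IV factors Cox17 at -0.42 and Pet100 at -0.40, with intervals that included a ratio of 1. Genes of mitochondrial DNA expression had a median of 0.10 over 31 genes, with 4 (12.9%) higher and 2 lower past 25%. Its highest were Mterf2 at 0.54, Slirp at 0.51 and the polymerase subunit gene Polg2 at 0.46. Its lowest were Mtif3 at -0.65, on 9 counts in the fasted and 20 in the fed library, Mterf1a at -0.57, on 11 counts in the fasted and 23 in the fed library, and Mtif2 at -0.39 (-0.60 to -0.18). Mitochondrial ribosomal protein genes, with a median exon length of 2533 bases, had a median of 0.12 (0.01 after the length adjustment, with 41 of 77 above 0) over 77 genes. Of these, 8 (10.4%) were higher past 25%, close to the 10.5% of all measured genes, and 1 was lower. Its highest were Mrps33 at 0.74, Mrps28 at 0.62 and Mrpl32 at 0.53, and its lowest Mrps21 at -0.47 (-0.78 to -0.17), Mrps36 at -0.38 and Mrpl51 at -0.26. Tricarboxylic acid cycle enzymes had a median of 0.10 over 14 genes, with 13 positive. The 2 (14.3%) higher past 25% were both subunits of succinyl-CoA synthetase (Suclg2 at 0.33 and Suclg1 at 0.33). Dld followed at 0.24, and among the lowest were Ogdh at -0.09 (-0.19 to -0.002) and Sucla2 at 0.02.

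Regulators of respiratory genes had a median of -0.07 (0.03 after the length adjustment) over 19 genes. Of these, 2 (10.5%) were higher past 25%, the same share as the 10.5% of all measured genes. None was lower past 25%, beside 11.7% of all, and 0 passed 2-fold. Without a threshold on size, 4 of 19 had intervals above a ratio of 1 and 7 had intervals below it. Over all measured genes these shares were 16.7% above and 19.2% below. The 2 past 25% were the coactivator gene Ppargc1a, with 141 counts in the fasted and 144 in the fed library and a log2 ratio of 0.47 (0.12 to 0.81), and Chchd2 at 0.48 (0.27 to 0.68). The nuclear receptor gene Esrra had 0.25 (0.11 to 0.39), while Nrf1, the gene of the factor whose motif was searched above, had 225 counts in the fasted and 394 in the fed library, a log2 ratio of -0.31 (-0.55 to -0.07). The other regulators with intervals below 1 were Yy1 at -0.25, Esrrg at -0.22, Gabpb2 at -0.20, Hcfc1 at -0.17, Sp1 at -0.11 and Ncor1 at -0.09. Perm1 had the lowest ratio at -0.45, on 13 counts in the fasted and 25 in the fed library, with an interval that included 1. The median of the nuclear subunits (0.20) lay above that of the regulators (-0.07) and below that of the fatty acid oxidation enzymes (1.46), without a test of the difference. After the length adjustment these medians were 0.09 for the nuclear subunits, 0.03 for the regulators and 1.44 for the fatty acid oxidation enzymes, and that of the mitochondrially encoded subunits, at -0.14, lay below the regulators.

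**Figure D4:**
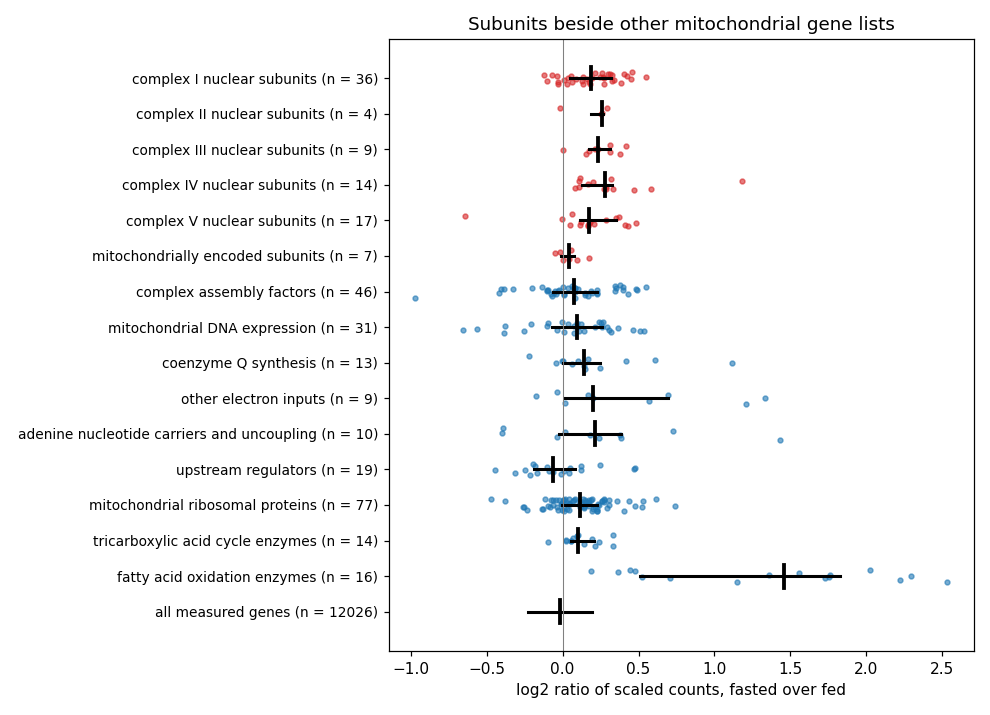
Log2 ratio of scaled counts, fasted over fed, of the members of each list (points; red for subunits, blue for other mitochondrial lists), with the median (vertical tick) and the interquartile range (bar); n is the number of measured genes. The subunit medians lie between 0.04 and 0.28, fatty acid oxidation enzymes at 1.46 and all measured genes at -0.02.

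In the plot of lists, the interquartile ranges of complexes I to V were from 0.08 (complex II) to 0.26 (complex I) wide. Those of tricarboxylic acid cycle enzymes (0.15), mitochondrial ribosomal proteins (0.23) and coenzyme Q synthesis (0.24) were of like width. The electron inputs (0.68) and the fatty acid oxidation enzymes (1.32) were wider.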

How the data were processed

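Per the labels, total RNA of sorted cells was made into libraries with a TruSeq RNA kit. The authors deposited whole-number counts per Ensembl gene, not normalised. A further deposited table holds a normalised signal, which equals the count divided by 1 factor per library (0.842 fasted, 1.19 fed; 99.998% of values within 0.0051). FastQC, STAR, HTSeq, DESeq, GRCm38 and mm10 are named per the submitters' processing notes. For the counting step, the annotation, the strand setting and the rule for multiply matching reads were not given in the sources used here.

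Here, symbols of 45143 of 45706 IDs, exon lengths and transcripts came from GENCODE M21. Scaling used size factors by the median of ratios (0.842 fasted, 1.19 fed). The intervals are exact binomial intervals of the fasted share of a gene's counts. Copies were exact matches, on either strand, of 50-base windows of the transcript with the largest coding sequence of each gene. Alternatives used edgeR 4.0.16, R 4.3.3 and Python 3.11.15, and the procedure was tested on simulated data. A further Atp5o ID of the annotation was not analysed here. The members and lists were chosen with earlier results of these data known. Named genes are the mitochondrially encoded subunits, the 3 highest and 3 lowest per complex and list, core subunits, isoform families, members past 2-fold and members not measured. Other names, such as those past 25%, the copies and the members with at least 90% of windows in copies, were chosen after their values were seen. Some genes taken by the naming rule are not reported here.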

Additional observations from a re-analysis of the deposited data

How the results depend on the processing

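No paired analysis was possible because each condition has 1 library. Every median of the 5 complexes and of all nuclear subunits stayed above 0 under TMM, total-count and upper-quartile factors, totals without the mitochondrially encoded genes, the deposited normalised values, other low-count filters, summed counts and the length adjustment (0.09 to 0.23 for all nuclear subunits), and no scaling moved the median of all genes by over 0.1. The length adjustment gave medians of 0.088 (all nuclear), 0.14 (complex II), 0.11 (complex III), 0.074 (complex IV), -0.14 (mitochondrially encoded), -0.015 (assembly factors) and 0.035 (regulators), the last 3 with the sign turned. It left 0 subunits higher past 2-fold, and 5 higher and 1 lower past 25%. Summed counts gave 0.069 (mitochondrially encoded), 0.13 (complex II), 0.56 (other electron inputs), 0.58 (carriers and uncoupling) and 1.30 (fatty acid oxidation). Without the interval, 20 subunits were higher and 2 lower past 25%. With the longest transcript as length, the median nuclear level was 133 in the fasted and 119.5 in the fed library. Chosen after seeing the data, the coding transcript gave 166 and 155, and the 5 mitochondrially encoded genes with few copies gave -0.00031. The cause of these shifts was not tested. Depth limits the low-count members, whose intervals span more than 2-fold.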

Other observations

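Genes of related function that the naming rule leaves out were chosen after their values were seen. Atpif1, the inhibitor of ATP hydrolysis by ATP synthase, had 729 counts in the fasted and 803 in the fed library, a log2 ratio of 0.36 (0.21 to 0.50). Usmg5, a small ATP synthase subunit, had 261 counts in the fasted and 287 in the fed library, a log2 ratio of 0.36 (0.11 to 0.61). Both were higher past 25%. Of the complex IV associated genes Higd1a and Higd2a, Higd1a had 0.38 (0.002 to 0.75) and Higd2a had 0.03 (-0.13 to 0.19).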
